A study of Mus musculus with 6 samples.

Results

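Matrix metalloproteinases and their membrane-anchored inhibitor Reck were examined as 9 genes, chosen by name from the 53546 gene features counted in each library. They are the stromelysins Mmp3 and Mmp10, the matrilysin Mmp7, the collagenases Mmp8 and Mmp13, the macrophage elastase Mmp12, the enamelysin Mmp20, the membrane-type enzyme Mmp16, and Reck. All 9 are listed as features in each of the 6 files. The libraries are RNA sequencing counts from mice of strain C57BL/6, 3 labelled spinal cord injury and 3 labelled control. The tissue label names spinal cord together with intervertebral disc, and the series text speaks of retina and of mice of 21 days. No injury method, no time after injury, no treatment of the controls and no genotype beyond the strain are given in the sources used here. Whether each library is a different animal is not stated, and the p-values below reflect library-to-library spread that may be technical.

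Matrix metalloproteinases are secreted or membrane-bound enzymes that cut collagens, elastin, proteoglycans and other proteins outside the cell. They are made with a propeptide that keeps the catalytic zinc covered until it is cut away. In the spinal cord they are known for opening the barrier between blood and tissue after injury and, later, for remodelling the scar. Reck is a glycoprotein held on the cell surface by a lipid anchor. It restrains several metalloproteinases and is needed, with Adgra2, for Wnt7 signalling in vessels of the central nervous system.

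What makes the 8 enzymes a family is the run of codons for the catalytic site, in which 3 histidines hold the zinc ion. It is shown for each enzyme, from GENCODE M21 transcripts, 5′ to 3′ on the coding strand, with the codons of the 3 histidines, of the catalytic glutamate and of a fixed glycine in capitals.
Mmp3: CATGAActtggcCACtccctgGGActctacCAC
Mmp10: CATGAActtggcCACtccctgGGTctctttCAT
Mmp7: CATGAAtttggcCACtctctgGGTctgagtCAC
Mmp8: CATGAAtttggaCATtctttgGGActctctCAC
Mmp13: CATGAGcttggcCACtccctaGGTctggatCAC
Mmp12: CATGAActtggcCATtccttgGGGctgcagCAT
Mmp20: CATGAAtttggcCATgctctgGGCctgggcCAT
Mmp16: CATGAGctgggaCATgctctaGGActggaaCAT
The run was found in all 8 enzymes and not in Reck. Mmp3 and Mmp10 were the closest pair, with 29 of 33 bases the same. Mmp16 was identical to Mmp7 and to Mmp10 at 21 of 33 bases, the lowest value among the pairs. Over whole transcripts Mmp3 and Mmp10 shared an unbroken run of 104 bases. Read pairs that map to both were not counted, so both genes may lose reads there. No other pair among the 9 genes shared a run longer than 33 bases.

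Of the 9 genes, 7 lie in a metalloproteinase cluster at the start of chromosome 9. Gene by gene, the start and end in the files are 7272514 to 7283331 for Mmp13, 7344381 to 7369499 for Mmp12, 7445822 to 7455975 for Mmp3, 7502353 to 7510241 for Mmp10, 7558457 to 7568486 for Mmp8, 7628232 to 7674980 for Mmp20 and 7692091 to 7699586 for Mmp7. Mmp16 lies on chromosome 4 from 17852893 to 18119145, and Reck on chromosome 4 from 43875530 to 43944806. All 9 are protein-coding genes on the plus strand, and the counts are summed over their exons. The build of the files is not named, and most feature names in them do not lie on the exons of that gene in the mouse build GRCm38. For these 9 genes the names hold: between 99.4% and 100% of their exonic bases lie on exons of the same gene in GENCODE M21, with a start shifted by 0 or 1 base. Of all features, 1740 (3.25%) meet the limit of 90% set for this. Mmp12 shares 157 exonic bases with Mmp1b on the other strand, and Mmp7 shares 123 with AV064505. Pairs that fall in such overlaps were not counted, and strand was not used.

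The promoters are shown as sequence background, and no link between their motifs and the counts was tested. The RefSeq promoter windows (GRCm38.p6) hold 8 of the 9 genes. The letters are given 5′ to 3′ from 110 bases before the transcription start to 12 bases from it. Capitals mark the AP-1 motif TGANTCA and the TATA motif TATAAA on either strand in the enzymes, and the GC box GGGCGG on either strand in Reck.
Mmp13 (chr9:7272404-7272525, plus strand): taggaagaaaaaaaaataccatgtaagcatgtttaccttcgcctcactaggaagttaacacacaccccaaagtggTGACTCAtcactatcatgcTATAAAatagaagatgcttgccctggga
Mmp12 (chr9:7347264-7347385, plus strand): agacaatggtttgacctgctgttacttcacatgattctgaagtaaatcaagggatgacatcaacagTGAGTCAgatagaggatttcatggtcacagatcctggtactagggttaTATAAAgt
Mmp3 (chr9:7445712-7445833, plus strand): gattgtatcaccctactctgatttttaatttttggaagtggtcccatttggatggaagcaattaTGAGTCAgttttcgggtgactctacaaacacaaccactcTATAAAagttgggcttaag
Mmp10 (chr9:7502232-7502353, plus strand): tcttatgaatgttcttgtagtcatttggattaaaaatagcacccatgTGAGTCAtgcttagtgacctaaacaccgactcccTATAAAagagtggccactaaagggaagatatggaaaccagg
Mmp8 (chr9:7558319-7558440, plus strand): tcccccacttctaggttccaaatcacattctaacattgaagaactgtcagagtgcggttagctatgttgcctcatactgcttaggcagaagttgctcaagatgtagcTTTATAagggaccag
Mmp20 (chr9:7628121-7628242, plus strand): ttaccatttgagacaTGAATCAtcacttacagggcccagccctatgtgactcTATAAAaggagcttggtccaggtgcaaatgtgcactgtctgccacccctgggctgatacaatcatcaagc
Mmp7 (chr9:7691980-7692101, plus strand): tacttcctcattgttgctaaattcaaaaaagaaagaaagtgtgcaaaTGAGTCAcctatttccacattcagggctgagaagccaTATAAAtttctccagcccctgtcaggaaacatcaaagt
Reck (chr4:43875420-43875541, plus strand): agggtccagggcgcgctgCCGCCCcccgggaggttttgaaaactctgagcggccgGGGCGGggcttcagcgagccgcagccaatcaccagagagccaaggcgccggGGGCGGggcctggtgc
Within 100 bases before the start, 6 of the 7 cluster genes held an AP-1 motif, at offsets of -35 in Mmp13, -44 in Mmp12, -46 in Mmp3, -63 in Mmp10, -95 in Mmp20 and -63 in Mmp7. For Mmp12 this is the second of its 2 windows, and for Mmp7 the first of its 2, and the other window of each held neither this nor the TATA motif. Mmp8 had none in its window. A TATA motif was found in a window of each of the 7, at offsets of -16 in Mmp13, -7 in Mmp3 and -29 in Mmp10. In Mmp20 it was at -58 and in Mmp7 at -123 and -26. In Mmp12 it lay past the start, at 5, and in Mmp8 at -3 on the other strand. Whether these matches act as TATA boxes was not tested. Over all 32851 windows of 300 bases, 7.81% held the AP-1 motif and 13.6% the TATA motif. Reck had neither, and held 3 GC boxes, a motif present in 35.7% of all windows. GC content was 69.3% in the window of Reck, against a median of 52.7% over all windows, and 37.7% to 46.7% in the enzymes' windows that are shown. A match is a description of letters, not evidence of binding.

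Total counts per library were 2385703 to 2905828 in the injury libraries and 2615213 to 3921627 in the controls. A count of 0 therefore allows up to 1.03, 1.05 and 1.26 CPM in injury 1, 2 and 3, up to 0.770, 0.765 and 1.15 CPM in control 1, 2 and 3, and up to 0.369 CPM over the injury libraries together, where CPM is the count per 1000000 counts of the library. These limits and all intervals cover counting error only. The control libraries did not stand together. Marker genes were read where their name holds. Those of neurons of the central nervous system (6 of 10) summed to 3138 to 3350 CPM in the injury libraries, and to 11.3, 19.4 and 3074 CPM in control 1, 2 and 3. Those of glia (3 of 8) summed to 3012 to 3192 CPM in the injury libraries, and to 10.8, 5.10 and 2911 CPM in control 1, 2 and 3. Those of the kidney tubule (5 of 11) summed to 1.68 to 4.82 CPM in the injury libraries, and to 2766, 1719 and 4.97 CPM in control 1, 2 and 3. Slc7a13, Aqp3 and Acnat2, read by name, had 0 counts in every injury library. So did Slc34a1 of the full kidney list, read only from a feature on 3.42% of its exons. The neural markers of the labelled cord were thus close to 0 in controls 1 and 2. Whether these 2 libraries are of the labelled tissue is not settled by the sources used here, so a rise or fall against them compares the injury libraries with libraries that lack these markers, and injury and tissue cannot be told apart there. Results are given below over all 6 libraries, without control 3 and without controls 1 and 2, where a gene passed the count filter of that fit. Of the 9 markers of cartilage and disc, 0 could be read by name. The 3 read from features on part of their exons summed to 67.8, 50.6 and 41.1 CPM in injury 1, 2 and 3, and to 1.03, 4.08 and 51.2 CPM in control 1, 2 and 3. In bulk RNA, fewer cells of a type and less RNA per cell cannot be told apart.

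**Figure D1:**
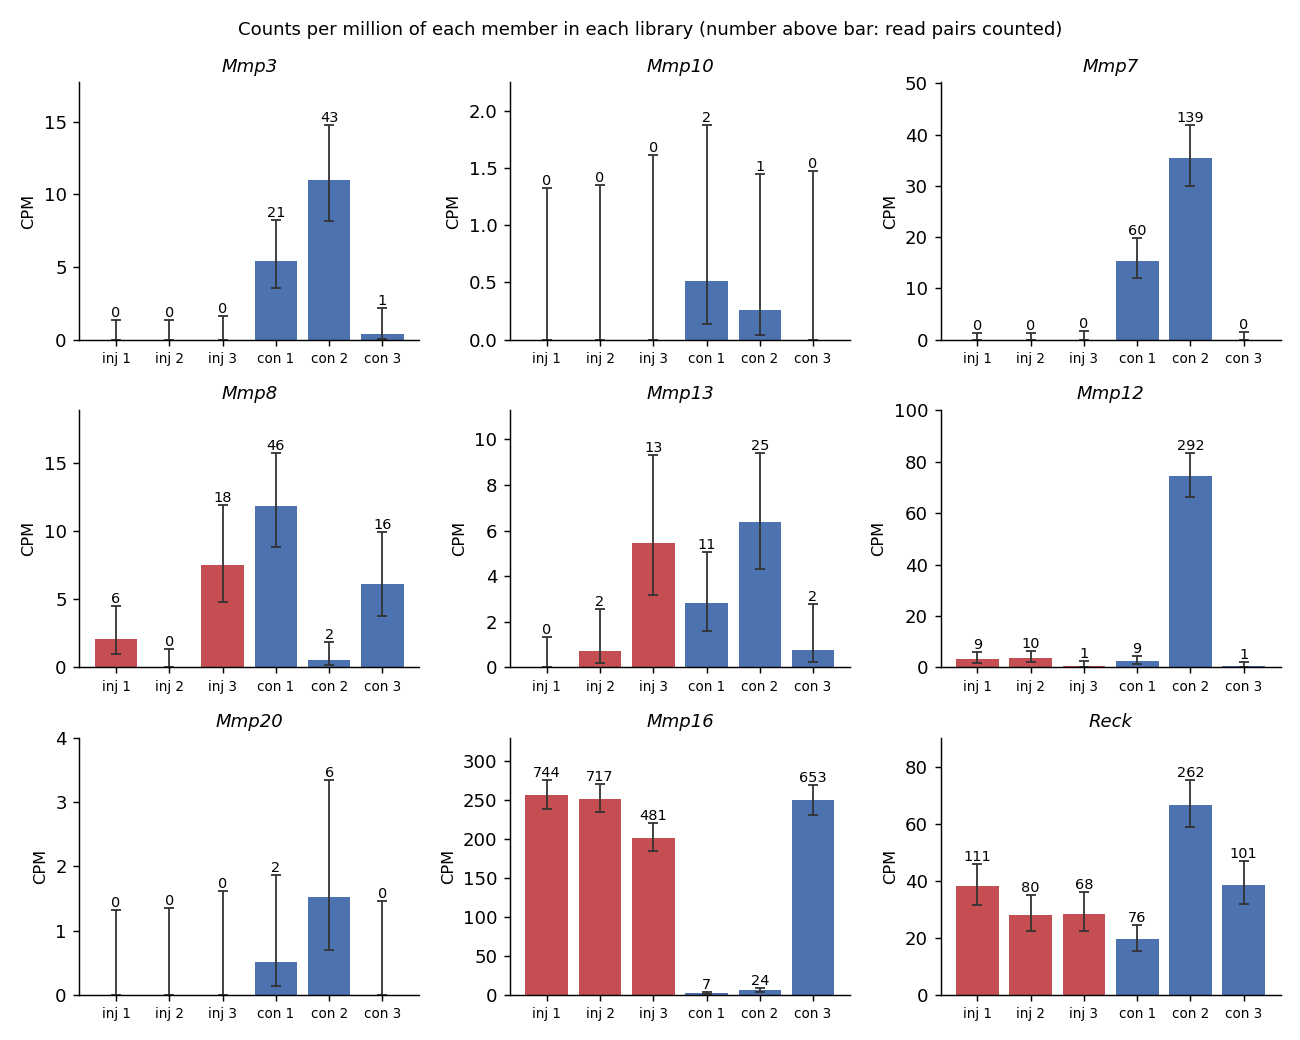
CPM of each of the 9 genes (vertical axes, each starting at 0) in injury libraries 1 to 3 (red) and control libraries 1 to 3 (blue). Bars are single libraries, error bars are 95% Wilson intervals for counting error, and the number above each bar is the count, such as 744 for Mmp16 in injury 1 and 7 in control 1.

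Mmp16, the membrane-type enzyme, was the most abundant of the 9 genes in the injury libraries and in control 3, and nearly absent from controls 1 and 2. It had 744, 717 and 481 counts in injury 1, 2 and 3, or 256, 252 and 202 CPM, and 7, 24 and 653 counts in control 1, 2 and 3, or 1.80, 6.12 and 250 CPM. The 3 injury libraries and control 3 thus stood together, and controls 1 and 2 apart and far below. The groups averaged 236 ± 30.3 CPM in injury and 85.9 ± 142 CPM in control (SD, n = 3 each). The log2 fold change over all 6 libraries was 1.61 (SE 1.57; edgeR quasi-likelihood test, adjusted p 0.482). Without control 3 it was 6.46 (SE 0.44; edgeR adjusted p 1.57e-04), with a mean 59.7 times that of controls 1 and 2. Mmp16 passed the filter of that fit only through the injury libraries, where it is high, so its call adds nothing to the counts. Control 3 alone against the injury libraries gave 0.04 (SE 0.17), from 1 control library and given without a test. This last fit assumes that the lone control varies like the injury libraries. The rise against controls 1 and 2 went with the neuronal and glial marker sums given above, and their part in it was not tested.

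Reck, the inhibitor, was present in every library. It had 111, 80 and 68 counts in injury 1, 2 and 3, or 38.2, 28.1 and 28.5 CPM, and 76, 262 and 101 counts in control 1, 2 and 3, or 19.5, 66.8 and 38.6 CPM. Control 1 was lowest and control 2 highest, with all injury libraries between them. The groups averaged 31.6 ± 5.72 CPM in injury and 41.6 ± 23.8 CPM in control (SD, n = 3 each). The log2 fold change was -0.15 (SE 0.40; edgeR adjusted p 0.802) over all 6 libraries and 0.16 (SE 0.39; edgeR adjusted p 0.731) without control 3. Neither passed the threshold. Against control 1, 2 and 3 alone the values were 0.89, -0.12 and -0.17, each from 1 control library and given without a test. The sign of Reck depended on the scaling and on the libraries used.

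The order of Mmp16 and Reck turned between libraries. Per kilobase of exon, Mmp16 stood at 29.5, 29.1 and 23.3 CPM per kb in injury 1, 2 and 3, and at 0.207, 0.706 and 28.8 CPM per kb in control 1, 2 and 3. On the same scale Reck stood at 7.99, 5.88 and 5.96 in the injury libraries, and at 4.08, 14.0 and 8.08 in control 1, 2 and 3. The level of Mmp16 over that of Reck, per kilobase, was 3.70, 4.94 and 3.90 in injury 1, 2 and 3, and 0.0508, 0.0505 and 3.57 in control 1, 2 and 3. Mmp16 was above Reck in 4 libraries and below it in controls 1 and 2.

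Mmp7 and Mmp3 were counted in controls 1 and 2 and almost nowhere else. Mmp7, the small matrilysin of epithelia, had 0 counts in all 3 injury libraries, and 60, 139 and 0 counts in control 1, 2 and 3, or 15.4 and 35.4 CPM in controls 1 and 2. Mmp3, stromelysin 1, which cuts many matrix proteins and activates other metalloproteinases, had 0 counts in all 3 injury libraries, and 21, 43 and 1 counts in control 1, 2 and 3, or 5.39, 10.97 and 0.382 CPM. For Mmp7 the groups overlapped at 0 through control 3, and for Mmp3 every control library was above every injury library, in control 3 by a single count. Neither passed the count filter with all 6 libraries or against control 3 alone. With no filter beyond 1 count, the edgeR adjusted p over all 6 libraries was 0.0792 for Mmp7 and 0.0916 for Mmp3.

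Without control 3, Mmp7 and Mmp3 fell in the injury libraries. With 3 counts over the injury libraries as the floor, Mmp7 was at least 69.1-fold lower and Mmp3 at least 22.2-fold lower than in controls 1 and 2 together. The edgeR adjusted p was 0.00141 for Mmp7 and 0.00315 for Mmp3. Both passed the filter only through the controls where they are high, so they had to differ there and the calls add nothing to the counts. Marker genes of the kidney tubule, given above, were high in the same libraries, and their part in these falls was not tested.

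**Figure D2:**
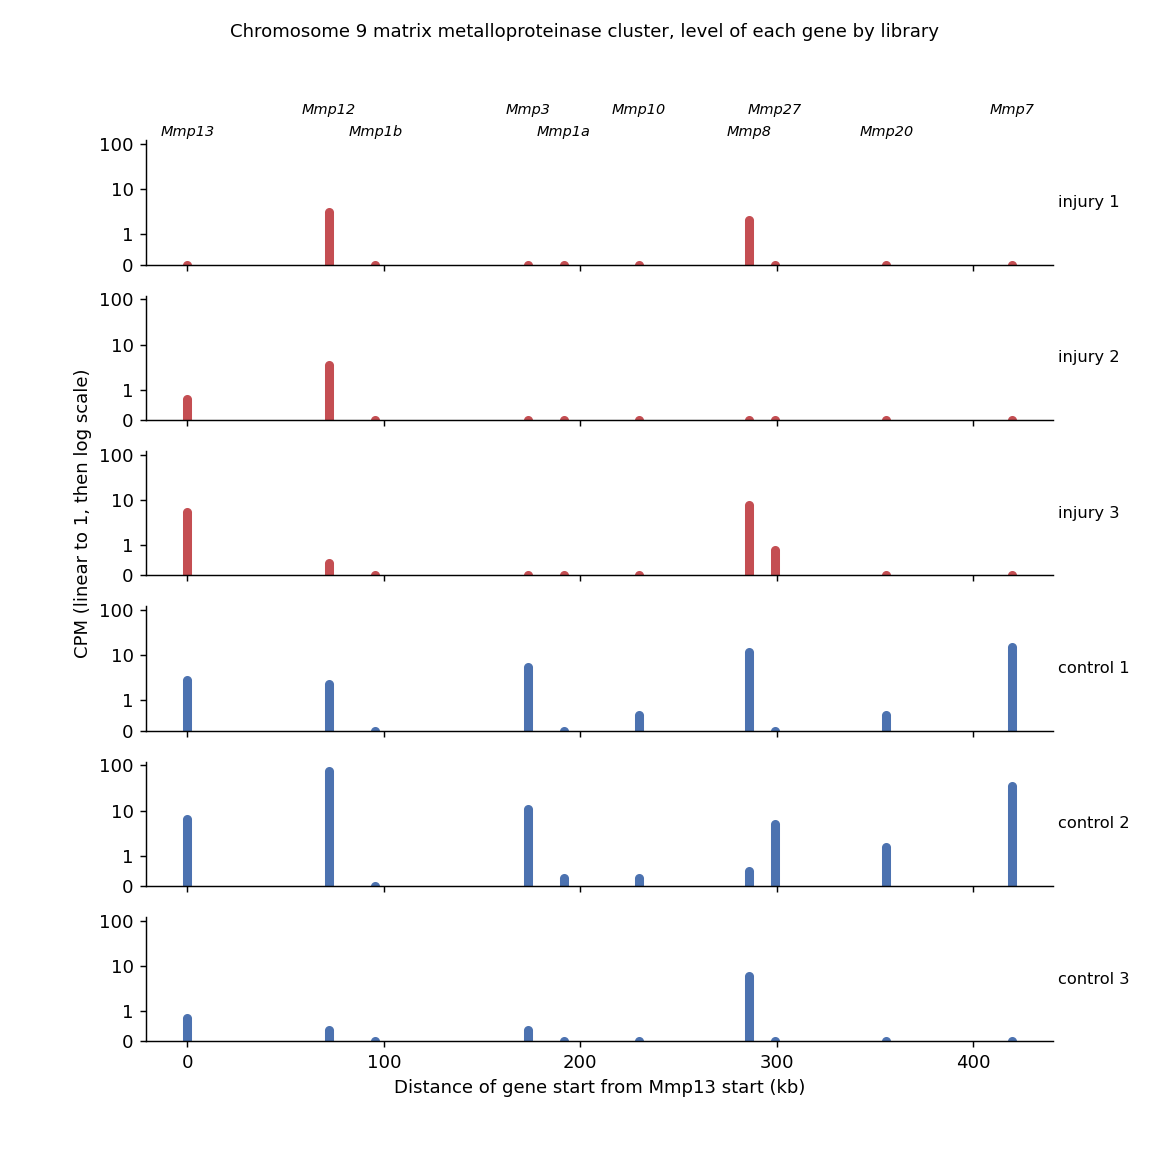
CPM (vertical axis, linear up to 1 and logarithmic above) of the metalloproteinase genes of the chromosome 9 cluster against the distance of their start from that of Mmp13 in kb, one panel per library, injury in red above control in blue. Mmp3 and Mmp7 are at 0 in the 3 injury libraries and in controls 1 and 2 Mmp3 reaches 5.39 and 10.97 CPM, Mmp7 15.4 and 35.4 CPM.

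Mmp10 and Mmp20 were at the limit of detection. Mmp10, stromelysin 2, had 0 counts in all injury libraries, and 2, 1 and 0 counts in control 1, 2 and 3. Mmp20, the enamelysin known from developing teeth, had 0 counts in all injury libraries, and 2, 6 and 0 counts in control 1, 2 and 3. Neither passed the filter over all 6 libraries, without control 3 or against control 3 alone. With no filter beyond 1 count, the edgeR adjusted p over all 6 libraries was 0.486 for Mmp10 and 0.358 for Mmp20. For both the Wilson intervals of the injury libraries overlap that of control 1. In all, 4 of the 9 genes had 0 counts in every injury library and at least 1 in a control, which was so for 18.9% of the 34980 features with any count.

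Mmp12, the elastase known from macrophages, was high in control 2 alone. It had 9, 10 and 1 counts in injury 1, 2 and 3, or 3.10, 3.51 and 0.419 CPM, and 9, 292 and 1 counts in control 1, 2 and 3, or 2.31, 74.5 and 0.382 CPM. Control 1 lay within the range of the injury libraries, and control 2 was 32.2 times control 1. Without control 3 the log2 fold change was -3.25 (SE 1.19; edgeR adjusted p 0.0471). This call rests on control 2: the value was 0.26 against control 1 alone and -3.95 against control 2 alone, each from 1 control library and given without a test. Mmp12 did not pass the filter with all 6 libraries. Marker genes of leukocytes (4 of 10 read by name) summed to 57.0 to 120 CPM in the injury libraries, and to 207, 427 and 57.4 CPM in control 1, 2 and 3. Their part in the level of Mmp12 was not tested. Tfec, of this list, had 0 counts in every injury library, and 49.0, 65.5 and 0 CPM in control 1, 2 and 3. Pax5, also read by name, went the other way against controls 1 and 2. It had 5.51, 5.27 and 7.96 CPM in injury 1, 2 and 3, and 1.28, 3.3 and 6.12 CPM in control 1, 2 and 3.

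Mmp8 and Mmp13, the collagenases, overlapped between the groups. Mmp8, known from neutrophils, had 6, 0 and 18 counts in injury 1, 2 and 3, or 2.06, 0 and 7.54 CPM, and 46, 2 and 16 counts in control 1, 2 and 3, or 11.8, 0.510 and 6.12 CPM. Injury 2 and control 2 were low, and control 1 was highest. The log2 fold change was -0.94 (SE 1.47; edgeR adjusted p 0.661) over all 6 libraries and -0.70 (SE 1.48; edgeR adjusted p 0.693) without control 3. Against control 1, 2 and 3 alone the values were -1.76, 3.39 and -0.89, each from 1 control library and given without a test. The sign of Mmp8 differed between these control libraries. None of the 8 neutrophil markers could be read from these files.

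Mmp13, the main collagenase of cartilage and bone in the mouse, had 0, 2 and 13 counts in injury 1, 2 and 3, or 0, 0.702 and 5.45 CPM, and 11, 25 and 2 counts in control 1, 2 and 3, or 2.82, 6.37 and 0.765 CPM. Injury 3 stood near control 2, with overlapping Wilson intervals, and the groups overlapped. The log2 fold change was -0.67 (SE 1.11; edgeR adjusted p 0.615) without control 3. Against control 3 alone the value was 1.38 (SE 1.44), from 1 control library and given without a test. Markers of fibroblasts and endothelium (2 of 9 read by name, Col1a2 and Cav1) summed to 245, 220 and 484 CPM in injury 1, 2 and 3, and to 69.6, 1662 and 206 CPM in control 1, 2 and 3. Col1a2 was at 380 CPM in injury 3, and Cav1 at 108, 106 and 104 CPM in injury 1, 2 and 3. Control 2, highest in this sum, held 2 counts of Mmp8 and 25 of Mmp13. Skeletal muscle markers (0 of 5 read by name, 2 from features on part of their exons) summed to 1.72, 0.351 and 95.2 CPM in injury 1, 2 and 3, and to 0, 0.255 and 16.8 CPM in control 1, 2 and 3. The part of such cells in the collagenase counts was not tested.

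**Figure D3:**
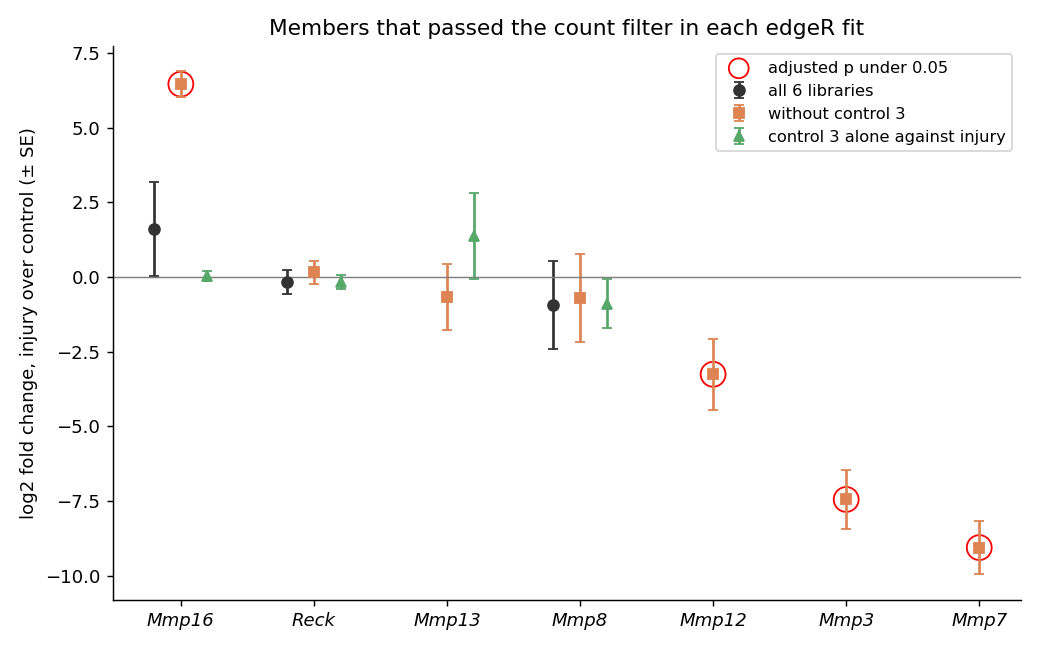
Log2 fold change of injury over control with its standard error (vertical axis) for the genes that passed the count filter, over all 6 libraries (black circles), without control 3 (orange squares) and for control 3 alone against injury (green triangles). Red rings mark an adjusted p under 0.05, seen for Mmp16, Mmp12, Mmp3 and Mmp7 without control 3 and in no other fit shown.

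Of the 9 genes, 3 passed the count filter over all 6 libraries (Mmp16, Reck and Mmp8) and 0 were called. Over all 12646 features that fit called 0, or 0%, and 3245 had an unadjusted p under 0.05, as did 0 of the 3 genes. limma-voom also called 0, with 3887 at an unadjusted p under 0.05, as did 1 of the 3 genes, Mmp16, at a log2 fold change of 4.46. With sample quality weights it called 55.7%, Mmp16 among them. DESeq2 called 1503 features (11.9%), none of them among the 9 genes, and gave Mmp16 no p. Without control 3, Mmp12 fell, in a fit of 15320 features of which 30.2% rose and 36.6% fell. Mmp16 was also called, higher, as were Mmp3 and Mmp7, lower. They are not set against these shares, since each passed the filter only through the libraries where it is high. Reck, Mmp8 and Mmp13 were tested and not called. In either direction that fit called 66.8% of all features. Among the 510 features whose name holds it called 72.2%, with 53.1% higher and 19% lower. Mmp12 passed the filter through control 2, where it is high, and through injury 2, at 3.51 CPM. Its call is to be read against these shares and adds little to the counts. Against control 3 alone, 4 passed the filter (Mmp16, Reck, Mmp13 and Mmp8) and 0 were called, where 6.78% of all 13857 features were. Injury libraries stood wholly above all controls for 13.7% of the features tested over all 6 libraries and wholly below for 25.4%. Mmp3 was the 1 such gene of the 9, below, though it was not among the features tested. Without control 3 these shares were 29.4% and 48.3%. Mmp16 lay above, and Mmp3, Mmp7, Mmp10 and Mmp20 below. Mmp16, Mmp3 and Mmp7 are not set against these shares either, for the reason given above. Mmp10 and Mmp20 were not among the features tested. The median log2 fold change of all tested features was -0.04 over all 6 libraries, -0.20 without control 3 and -0.03 against control 3 alone.

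Summed over the 7 cluster genes, the libraries held 15, 12 and 32 counts in injury 1, 2 and 3, or 5.16, 4.21 and 13.4 CPM, and 151, 508 and 20 counts in control 1, 2 and 3, or 38.8, 130 and 7.65 CPM. All 7 were detected in controls 1 and 2, 4 in control 3, and 2, 2 and 3 in injury 1, 2 and 3. The leading gene was not the same: Mmp12 took 60.0% of the sum in injury 1 (95% Wilson interval 35.7% to 80.2%) and 83.3% in injury 2 (55.2% to 95.3%), and Mmp8 took 56.2% in injury 3 (39.3% to 71.8%). In the controls Mmp7 led in control 1 with 39.7% (32.3% to 47.7%), Mmp12 in control 2 with 57.5% (53.1% to 61.7%) and Mmp8 in control 3 with 80.0% (58.4% to 91.9%). Per kilobase of exon, the order in each injury library and in control 3 began with Mmp16 and Reck. In control 1 it began with Mmp7 at 14.4 CPM per kb and Mmp8 at 4.87, and in control 2 with Mmp7 at 33.2 and Reck at 14.0. The Wilson intervals of Reck, at 4.08 in control 1, and of Mmp8 there overlapped.

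Of the other metalloproteinases of the cluster, Mmp27 was counted mainly in control 2. It had 0, 0 and 2 counts in injury 1, 2 and 3, and 0, 20 and 0 counts, or 0, 5.10 and 0 CPM, in control 1, 2 and 3. Mmp1a had 1 count, in control 2, and Mmp1b had none. The window of 427 kb from Mmp13 to Mmp7 held 13 features in all, and its 3 features other than metalloproteinases had at most 3 counts in any library.

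Genes that act with the metalloproteinases could be read only in part. Where the name did not hold, a gene was read from features lying on its GRCm38 exons, which covers a share of the gene and is not its full level. With all 6 libraries, 0 of the genes of these lists were called, and the calls below are those without control 3. In that fit 28.1% of 5646 genes rose and 31.5% fell, and the counts below are to be read against these shares. A2m, Adam22 and Acan passed its filter only through the injury libraries, where they are high. Adam8 and Fosl1 passed it only through the controls, where they are high. The calls of these genes add nothing to their counts. Against control 3 alone, 0.708% of 5367 genes read this way fell and 0% rose. Of 15 other metalloproteinases 4 could be read, 1 was tested (Mmp19) and 0 were called. Among inhibitors and partners of Reck, 3 of 8 could be read, and 2 rose, Timp2 and A2m. Timp2, an inhibitor that also takes part in activating Mmp2, was read from 16.9% of its exons and had 565, 507 and 468 CPM in injury 1, 2 and 3, and 13.9, 175 and 433 CPM in control 1, 2 and 3. Its log2 fold change without control 3 was 2.65 (SE 0.87; edgeR adjusted p 0.0412). Like Mmp16, it was high in the injury libraries and in control 3. A2m, a protease trap of plasma, was read from 8.73% of its exons and had 325, 293 and 104 CPM in injury 1, 2 and 3, and 1.03, 1.02 and 191 CPM in control 1, 2 and 3.

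Among genes of the ADAM and ADAMTS families, not all of them active proteases, 10 of 19 could be read and 9 were tested. Adam22 was higher, and Adam8, Adam17 and Adamts9 were lower. Adamts9, an aggrecanase, had 6.19, 5.62 and 4.61 CPM in injury 1, 2 and 3, and 160, 108 and 13.8 CPM in control 1, 2 and 3, from 6.33% of its exons. Of the plasminogen system, Serpine2, a protease inhibitor of nervous tissue, rose, read from 11.2% of its exons. It had 470 CPM, 546 CPM and 559 CPM in injury 1, 2 and 3, and 16.2 CPM, 122 CPM and 460 CPM in control 1, 2 and 3. Its log2 fold change without control 3 was 3.10 (SE 0.72; edgeR adjusted p 0.0128).

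Matrix substrates could be read for 11 of 17 genes, of which Acan rose and Col4a1, Col4a2, Col15a1, Col27a1 and Bgn fell. Col15a1, a basement membrane collagen and 1 of the 2 substrates read by name, had 28.2, 21.4 and 38.1 CPM in injury 1, 2 and 3, and 42.3, 1151 and 21.4 CPM in control 1, 2 and 3. Control 2 thus stood apart for this collagen as it did for Mmp12. Of 10 genes of AP-1 and its inducers 3 could be read, and Junb and Fosl1 fell. Junb, an AP-1 subunit read from 67.1% of its exons, had 42.3, 32.7 and 31.4 CPM in injury 1, 2 and 3, and 409, 219 and 22.6 CPM in control 1, 2 and 3. Fosl1 had 4.47, 0.702 and 2.52 CPM in injury 1, 2 and 3, and 60.3, 4.59 and 1.91 CPM in control 1, 2 and 3, with control 1 alone standing apart.

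**Figure D4:**
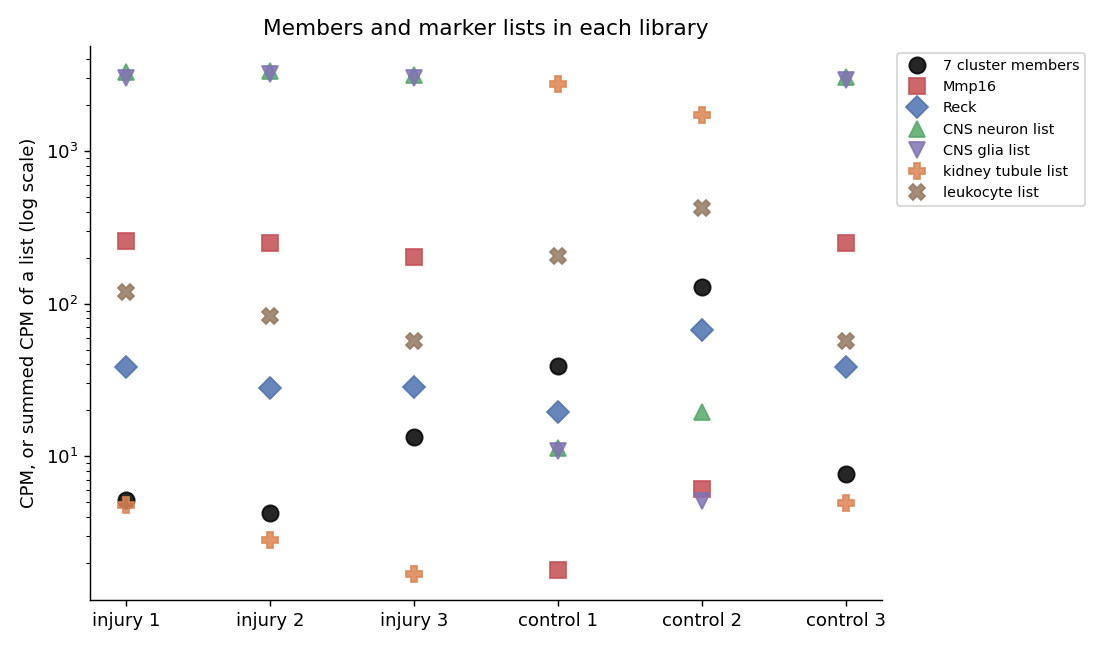
CPM of Mmp16 and Reck and summed CPM of the 7 cluster genes and of 4 marker lists read by name (vertical axis, logarithmic) in each library. Mmp16 at 256, 252, 202 and 250 CPM in injury 1, 2, 3 and control 3 goes with high neuronal and glial sums. The cluster sum is highest in control 2 at 130 CPM. The leukocyte sum is 427 CPM there and 207 CPM in control 1. The fibroblast and endothelium sum, not plotted, is 1662 CPM in control 2 and 69.6 CPM in control 1.

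The genes with the most similar pattern over the 6 libraries were sought among 685 other genes whose name holds and that had at least 10 counts, by the Euclidean distance of centred log2 CPM. For Mmp16 they were Grm8, a glutamate receptor, at a distance of 0.36 log2 units, Phf24 at 0.70 and Cntn5, an adhesion molecule of neurons, at 0.85. Grm8 had 76.1, 84.6 and 67.5 CPM in injury 1, 2 and 3, and 0, 1.79 and 73.4 CPM in control 1, 2 and 3. For Reck they were Tmem67 at 0.36, Kdm5d at 0.39 and Ctnnal1 at 0.62. For Mmp7 they were Gata6, a transcription factor, at 0.66, Acnat1 at 0.68 and Gm48996 at 0.82, and for Mmp3 Map3k8, a kinase of inflammatory signalling, at 0.79, Gm12403 at 0.81 and Met, the receptor of hepatocyte growth factor, at 0.85. The patterns of Mmp12, Mmp13 and Mmp8 had no such close match, with nearest distances of 1.45 (Gm20559), 1.62 (Hyal5) and 2.59 (Lmod2). These distances describe 6 libraries of which 2 stand apart, and carry no test.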

How the data were processed

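RNA sequencing was measured in 6 mouse libraries, grouped by the sample group field of the labels. Per the labels' protocols, Trizol RNA went into Illumina TruSeq libraries. Bowtie 0.12.2, mm8 and mm9 stand in the submitters' processing notes. The deposited values are raw counts of read pairs over exons by gene name, which the authors obtained with featureCounts 2.0.1, per the file headers. Both ends had to map to the same chromosome, strand was not used, and pairs with several places or genes were left out. The aligner and build behind these counts are not given in the sources used here. The 9 genes and all lists were chosen with earlier results of these data known.

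Differences were tested with edgeR 4.0.16 in R 4.3.3 on TMM-scaled counts of features kept by filterByExpr, by the quasi-likelihood test with Benjamini-Hochberg adjustment over all of them and calls at 0.05. CPM uses the total count of a library. A name holds where at least 90% of a feature's exonic bases lie on exons of that gene in GENCODE M21. For other listed genes, features with at least 100 bases on exons, 90% of them on 1 gene, were summed (12832 features, 10611 genes). The rule for named genes takes the 9 genes, listed genes whose name holds, genes of the cluster window and the 3 nearest by pattern for genes with at least 10 counts. Listed genes read by overlying gene fall outside it, and those named were picked after their values were seen. Alternatives were other scalings, filters, DESeq2 1.42.0, limma-voom (limma 3.58.1) with and without sample quality weights, a replicate block, removal of the 10 most abundant features and left-out libraries. The code was tested on simulated counts. Not every listed gene is reported here. The table of the whole series, which repeats these counts, was not used.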

Additional observations from a re-analysis of the deposited data

How the results depend on the processing

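Over all 6 libraries the count of called features was 0 in edgeR and stayed at 0 under 3 other scalings, 2 other filters, limma-voom, the replicate block, removal of the 10 most abundant features and the reading by overlying gene, an alternative added after seeing the data. It was 1503 with DESeq2, 7042 with limma-voom and sample quality weights, 939 for control 3 alone against injury, and 0 to 10231 when 1 library was left out, the highest without control 3. Sample quality weights also called Mmp16, with a log2 fold change of 5.61 (limma-voom adjusted p 2.17e-04). With the replicate number as a block Mmp16 was 4.72 (edgeR adjusted p 0.229). The deviations of same-numbered libraries from their group means correlated at 0.065, -0.14 and 0.059 for numbers 1, 2 and 3. The control deviations include the split of controls 1 and 2 from control 3. These values therefore cannot decide whether same-numbered libraries are paired. The sign of Reck turned to 0.0914 with no filter beyond 1 count and to 0.0565 with 1 CPM in 3 libraries, and ran from -0.42 to 0.16 over the left-out libraries. That of Mmp8 ran from -2.36 to 0.18, the highest without control 1. None of these values of Reck and Mmp8 passed the test.

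Without control 3, Mmp12 kept its call under RLE, upper quartile and total count scaling and in DESeq2, alternatives added after seeing the data. As Mmp12 passed the filter through control 2, where it is high, and injury 2, these alternatives say little of its stability. For Mmp16, Mmp3 and Mmp7, which passed the filter only through the libraries where they are high, they say nothing of stability. There Reck turned to -0.19 with upper quartile scaling, to -0.48 with total counts and to -0.12 against control 2 alone. Mmp12 turned to 0.26 against control 1 alone and Mmp8 to 3.39 against control 2 alone, values of 1 control library. Total count scaling gave a median of -0.75 over all tested features, against -0.20 with TMM. The causes of these changes were not tested. At 2385703 to 3921627 counts per library, Mmp10 and Mmp20 are too low for any comparison.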
